A study of Mus musculus with 12 samples.

Results

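The genes described are the detoxification enzymes and ABC transporters of the mouse spinal cord. They were taken by name: glutathione S-transferases (Gst classes a, k, m, o, p and t), aldehyde dehydrogenases (Aldh, without Aldh1l1), the aldo-keto reductase family Akr1, the epoxide hydrolases Ephx1 and Ephx2, the carbonyl reductase Dcxr, and transporters of the families Abca, Abcb, Abcc, Abcd and Abcg. Each gene was read from its brightest probe set that the array annotation ties to a single gene symbol. The rule found 81 genes, on 126 probe sets, among 12393 genes measured. Of these, 48 passed a filter on low signal and were tested, and 33 lay under it.

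The study compared spinal cord RNA of mice at 13 days of age on expression arrays, with 4 mice in each of 3 groups and 1 array per mouse. All mice were of an FVB line that carries human SMN2 and the SmnΔ7 transgene, both homozygous, a model of spinal muscular atrophy (SMA), in which loss of the survival motor neuron protein kills motor neurons. SMA mice lacked both copies of mouse Smn (SMN2+/+;SmnΔ7+/+;mSmn−/−). They received either ceftriaxone, a beta-lactam antibiotic, at 200 mg/kg daily into the peritoneum from day 5, or the saline vehicle. Wildtype mice kept a single intact Smn copy (mSmn+/−), carried the same transgenes and received vehicle. The labels mention whole cords and also lumbar segments without settling which was arrayed, state perfusion with fixative, and leave the sex of the animals unstated. They call both vehicle groups untreated in one field and vehicle-treated in another.

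Values are MAS5 signals, a linear brightness per probe set, and tests ran on log2(signal + 16), so fold changes understate those of dim genes. Smn1 read 3.3 to 15.8 in SMA ceftriaxone, 3.6 to 5.7 in SMA vehicle and 263.4 to 414.3 in wildtype. Wildtype array 2 stood apart: its signals for the T cell genes Rag1 and Cd3d were 7862.5 and 5575.8, and the summed signal of 10 thymocyte markers was 38370 there, against at most 532 on any other array. The female transcript Xist exceeded 1000 on all 4 SMA ceftriaxone arrays, on SMA vehicle arrays 1 and 4, and on wildtype array 3. Counts without wildtype array 2, and with Xist as a covariate, stand beside the 3 overall counts below, and calls of named genes that these settings end or add stand beside the gene.

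Glutathione S-transferases join glutathione to reactive, fat-soluble compounds so that they can be carried out of the cell. Aldehyde dehydrogenases, aldo-keto reductases and epoxide hydrolases remove aldehydes, carbonyls and epoxides, many of them products of lipid oxidation, and some aldehyde dehydrogenases make retinoic acid. ABC transporters use ATP to move lipids, drugs and conjugates across membranes, at the blood-brain barrier, in peroxisomes and in lipid-rich cells such as oligodendrocytes. The transcription factor Nrf2, encoded by Nfe2l2, acts on many such genes through the antioxidant response element.

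Promoter windows are shown for the Gstm genes that passed the filter: Gstm1, Gstm4, Gstm5 and Gstm7. They belong to a gene cluster on chromosome 3 in which the signals of Gstm1 and Gstm7 moved in opposite directions. Windows are also shown for called genes outside this cluster whose window held the core of that element. The sequences are those of RefSeq on GRCm38.p6, 250 bases before the annotated start and 50 after it, 5′ to 3′ along the gene's strand. Capitals mark the core TGACNNNGC, or its complement where it lies on the other strand.
Gstm1, chr3:108017769-108018068, minus strand: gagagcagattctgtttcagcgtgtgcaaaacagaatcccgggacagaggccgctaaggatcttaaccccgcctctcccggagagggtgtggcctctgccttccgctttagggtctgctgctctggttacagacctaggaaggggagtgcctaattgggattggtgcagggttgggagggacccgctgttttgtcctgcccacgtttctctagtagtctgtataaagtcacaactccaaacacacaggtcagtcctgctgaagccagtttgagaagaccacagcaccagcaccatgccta
Gstm4, chr3:108044807-108045106, minus strand: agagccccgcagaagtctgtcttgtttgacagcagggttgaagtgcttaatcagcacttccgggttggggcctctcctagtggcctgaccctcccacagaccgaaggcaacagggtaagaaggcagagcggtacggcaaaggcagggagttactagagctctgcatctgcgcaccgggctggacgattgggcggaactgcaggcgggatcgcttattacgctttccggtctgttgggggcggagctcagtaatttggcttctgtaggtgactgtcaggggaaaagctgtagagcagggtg
Gstm5, chr3:107895604-107895903, plus strand: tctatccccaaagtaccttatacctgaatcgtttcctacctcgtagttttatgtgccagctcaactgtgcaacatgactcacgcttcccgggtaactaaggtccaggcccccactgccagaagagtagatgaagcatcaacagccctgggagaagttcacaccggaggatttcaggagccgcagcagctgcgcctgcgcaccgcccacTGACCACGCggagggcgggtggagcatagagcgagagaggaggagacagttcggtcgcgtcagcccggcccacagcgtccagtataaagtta
Gstm7, chr3:107931565-107931864, minus strand: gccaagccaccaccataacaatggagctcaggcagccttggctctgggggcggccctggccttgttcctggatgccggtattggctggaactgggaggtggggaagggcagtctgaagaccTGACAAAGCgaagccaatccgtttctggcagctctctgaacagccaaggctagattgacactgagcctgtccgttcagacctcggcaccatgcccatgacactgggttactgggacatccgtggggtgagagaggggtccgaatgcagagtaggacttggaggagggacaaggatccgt
Aldh9a1, chr1:167349741-167350040, plus strand: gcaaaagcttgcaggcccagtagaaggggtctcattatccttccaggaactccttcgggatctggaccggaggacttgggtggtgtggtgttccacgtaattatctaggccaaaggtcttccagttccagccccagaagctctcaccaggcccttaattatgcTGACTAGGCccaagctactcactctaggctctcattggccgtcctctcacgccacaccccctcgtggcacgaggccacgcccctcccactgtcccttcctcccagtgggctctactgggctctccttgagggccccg
Abcb1a, chr5:8566841-8567140, plus strand: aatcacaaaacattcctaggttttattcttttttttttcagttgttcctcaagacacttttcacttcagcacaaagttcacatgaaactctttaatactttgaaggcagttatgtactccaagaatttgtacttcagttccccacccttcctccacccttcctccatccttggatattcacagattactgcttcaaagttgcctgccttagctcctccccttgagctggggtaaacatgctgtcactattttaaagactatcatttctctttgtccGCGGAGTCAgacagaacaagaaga
Aldh1a2, chr9:71215539-71215838, plus strand: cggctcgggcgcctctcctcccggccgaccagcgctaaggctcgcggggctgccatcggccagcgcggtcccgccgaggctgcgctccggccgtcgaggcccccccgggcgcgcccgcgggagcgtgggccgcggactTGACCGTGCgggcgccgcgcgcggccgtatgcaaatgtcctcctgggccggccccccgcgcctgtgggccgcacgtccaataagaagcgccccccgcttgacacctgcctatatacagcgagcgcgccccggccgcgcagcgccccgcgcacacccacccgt
A window was given for 64 of the 81 genes (77 windows). The core TGACNNNGC, searched on both strands, occurred in 14.3% of these windows and in 12.4% of all 32841 windows of the table. The core GCGTG of the xenobiotic response element occurred in 28.6% of these windows and in 32.4% of all; in the Gstm5 window a match of it overlapped the other core. Counted by gene, TGACNNNGC occurred in 14% of all 27018 genes with a window. Among genes lower in SMA vehicle than in wildtype, 3 of the 13 with a window held it (Gstm7, Aldh9a1 and Abcb1a). Among those higher, 1 of 9 did (Aldh1a2). Whether these shares differ from that of all genes, or from each other, was not tested. These matches describe letters in the windows and were not tested as binding sites. Gstm1, Gstm4 and Gstm7 each have a second window in the table, not shown, without that core.

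SMA vehicle cords differed from wildtype cords in both directions. Of the 48 genes tested, 9 were higher and 17 lower in SMA vehicle at a Benjamini-Hochberg adjusted p under 0.05 (limma), which is 18.8% and 35.4%. Over all 8004 genes tested, 25.5% were called higher and 23.6% lower. The median log2 difference was -0.19 over the 48 and 0.01 over all genes. Without wildtype array 2 the counts were 8 higher and 24 lower, and with Xist as a covariate 9 and 15.

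With ceftriaxone, 18 of the 48 genes were higher and 5 lower than in SMA vehicle, which is 37.5% and 10.4%, against 19.9% and 17.8% of all genes. The median log2 difference was 0.22, against 0.00 over all genes. Leaving out wildtype array 2 gave counts of 22 higher and 5 lower, and Xist as a covariate gave 13 and 4. Against wildtype, SMA ceftriaxone cords had 5 of the 48 genes higher and none (0) lower, where 3.84% of all genes were called higher and 0.962% lower. Without wildtype array 2 these counts were 5 higher and 5 lower, the lower genes being Gstp1, Aldh1a7, Aldh3a2, Abca2 and Abcd4, and with array weights, which keep that array, the same 5 genes were lower. With Xist as a covariate they were 2 higher and 0 lower. The 3 comparisons share arrays, so their values are given side by side and not as independent results. By calls, 13 genes were lower in SMA vehicle, higher with ceftriaxone and not called against wildtype. The opposite order held for 4 genes, and 18 were called in none of the comparisons. The share of all genes with each of these patterns was not counted, so the pattern counts do not set the 48 apart from other genes.

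**Figure D1:**
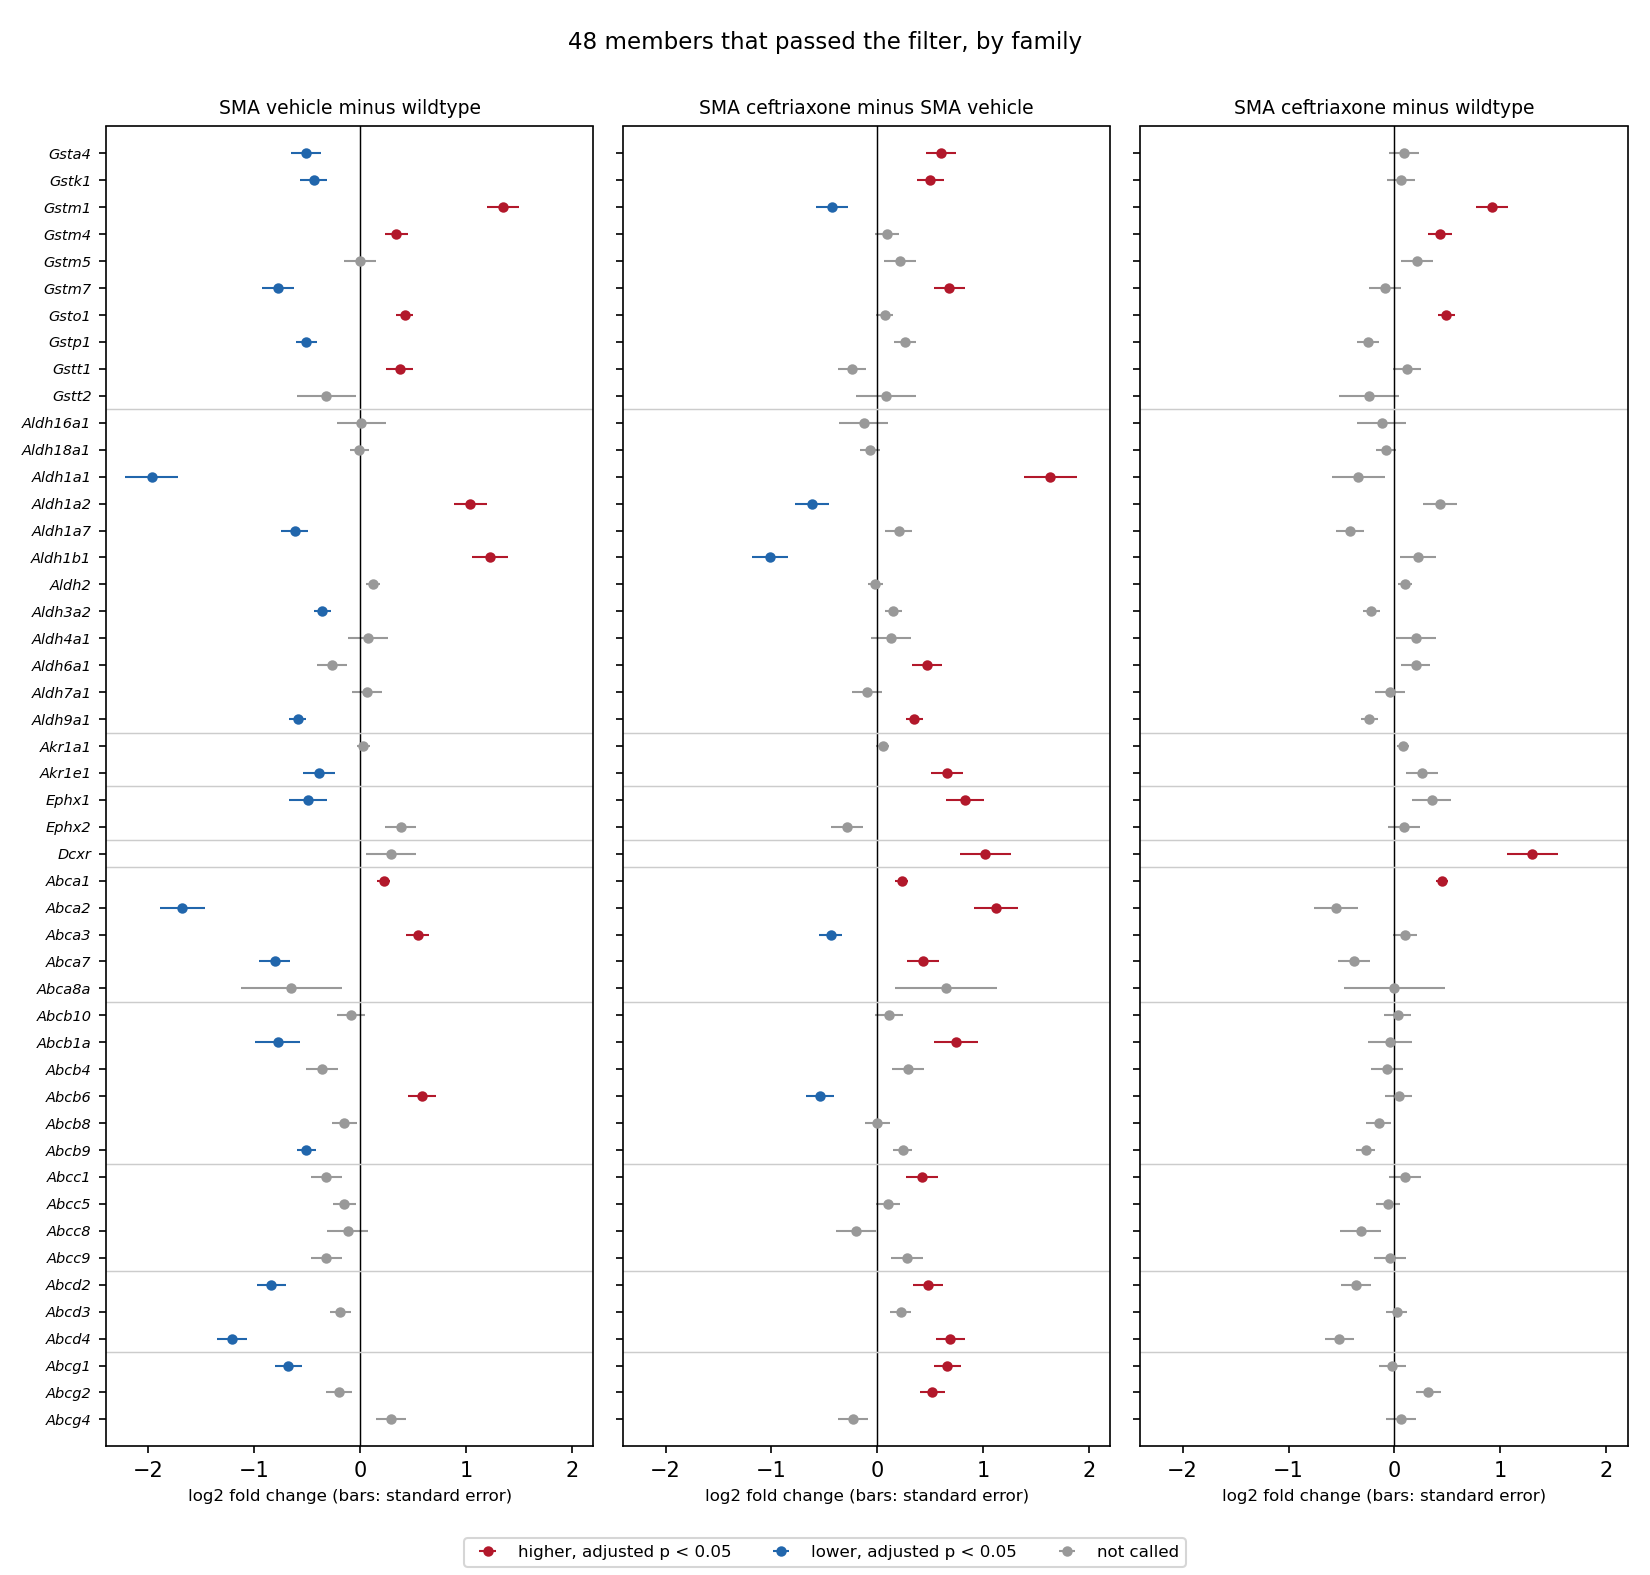
Log2 fold change of each of the 48 tested genes (rows, by family) in SMA vehicle minus wildtype, SMA ceftriaxone minus SMA vehicle, and SMA ceftriaxone minus wildtype, with standard errors; red and blue points passed adjusted p under 0.05. In the first panel 17 genes lie to the left as blue points and 9 to the right as red ones; in the last panel 5 are called, all to the right.

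Among the glutathione S-transferases, 10 of 17 passed the filter. In SMA vehicle 4 were higher and 4 lower than in wildtype (40% each, against 25.5% and 23.6% of all genes). With ceftriaxone 3 were higher and 1 lower than with vehicle (30% and 10%, against 19.9% and 17.8%). Gstm1, a mu-class enzyme, read 1904.6, 2896.7, 2208.9 and 2519.2 in SMA ceftriaxone, 2758, 3385.2, 3376 and 3208.2 in SMA vehicle, and 1330.1, 897.5, 1435.5 and 1363.6 in wildtype. Every array of both SMA groups lay above every wildtype array, while the SMA groups overlapped. Its log2 difference was 1.35 ± 0.15 (SE, adjusted p = 1.57e-05) for SMA vehicle against wildtype and 0.92 ± 0.15 (adjusted p = 0.00737) for SMA ceftriaxone against wildtype. It was lower with ceftriaxone than with vehicle (log2 difference -0.43, adjusted p = 0.0434), a call kept in 13 of 27 alternative settings. Its probe set carries the suffix of sets that may read related genes; 2 further Gstm1 probe sets differed by 1.48 and 0.73 in SMA vehicle against wildtype and by -0.51 and -0.52 with ceftriaxone against vehicle, all called. For ceftriaxone against wildtype they gave 0.97, called, and 0.21, not called (adjusted p = 0.476). With Xist as a covariate the ceftriaxone calls of the brightest set were lost, against wildtype (adjusted p = 0.0602) and against vehicle (adjusted p = 0.0989).

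Gstm7, of the same cluster, moved the other way. It read 468.2, 568.2, 454 and 455.2 in SMA ceftriaxone, 323.6, 332.1, 279.8 and 254.8 in SMA vehicle, and 584.1, 366.5, 597.7 and 561.2 in wildtype. All 4 SMA vehicle arrays lay below all arrays of the other groups. The log2 difference was -0.78 ± 0.15 (adjusted p = 0.000905) for SMA vehicle against wildtype and 0.68 ± 0.15 (adjusted p = 0.00357) for ceftriaxone against vehicle. Gstm4 read 343.2, 425.7, 312.5 and 347.5 in SMA ceftriaxone, 372.6, 340.5, 296.2 and 323.9 in SMA vehicle, and 279.2, 233.6, 265.4 and 262 in wildtype. It was higher than wildtype in both SMA groups, by 0.43 with ceftriaxone (adjusted p = 0.0477) and by 0.34 with vehicle (adjusted p = 0.0234). The ceftriaxone call was kept in 6 of 26 alternative settings and was lost with Xist as a covariate (0.37, adjusted p = 0.246). Gstm5, the brightest member of the family here, read 5737.2 to 7185 in SMA ceftriaxone, 5198 to 6262.1 in SMA vehicle and 3803.9 to 6746 in wildtype and was called in no comparison with all arrays; without wildtype array 2 it was higher with ceftriaxone than with vehicle (0.21, adjusted p = 0.0376). Gstm2, Gstm3 and Gstm6, which lie between Gstm7 and Gstm1, were under the filter.

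**Figure D2:**
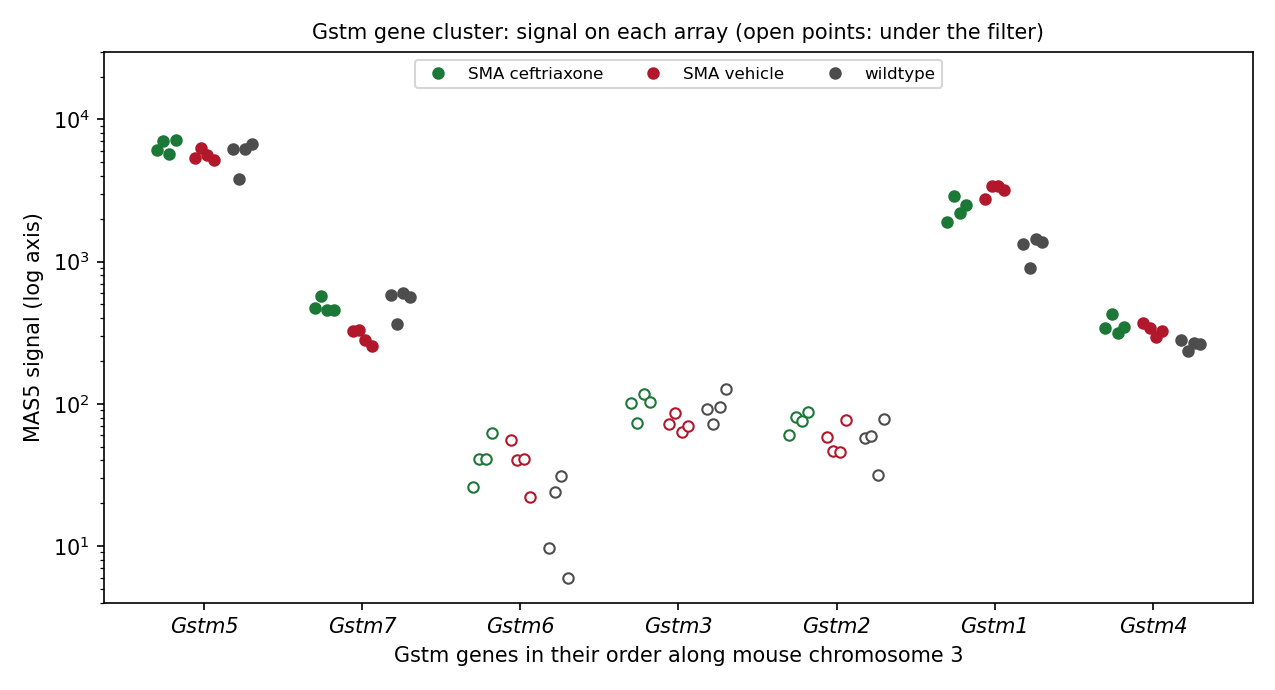
Signal of the 7 Gstm genes on each array (log axis), in their order along chromosome 3, with SMA ceftriaxone, SMA vehicle and wildtype arrays side by side; open points are genes under the filter. Gstm7 is lowest on the SMA vehicle arrays and Gstm1 lowest on the wildtype arrays; levels of different genes come from different probe sets and are not comparable.

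Gstp1, the pi-class enzyme, read 5634.4, 5873.8, 5355.1 and 5438.3 in SMA ceftriaxone, 4786.8, 4835.4, 4519 and 4451.3 in SMA vehicle, and 6578.1, 5199.7, 7579.9 and 7373.7 in wildtype. The SMA vehicle arrays lay below all others. It was lower in SMA vehicle than in wildtype by 0.51 on the log2 scale (log2 difference -0.51 ± 0.10, adjusted p = 0.00104), and the difference of ceftriaxone against vehicle was 0.26 (adjusted p = 0.0578, not called; 0.00181 without wildtype array 2). Without that array it was also lower with ceftriaxone than in wildtype (-0.36, adjusted p = 0.00411). Gsta4, which conjugates the lipid peroxidation product 4-hydroxynonenal, read 1733.5, 2475.7, 2383.7 and 2769.8 in SMA ceftriaxone, 1563, 1741.2, 1316.2 and 1495.5 in SMA vehicle, and 2213, 1850.9, 2463.8 and 2209.9 in wildtype. The SMA vehicle arrays lay below the wildtype arrays, and 1 ceftriaxone array fell within their range. Its log2 difference was -0.51 (adjusted p = 0.00776) against wildtype and 0.60 with ceftriaxone (adjusted p = 0.00455). Gstk1, a kappa-class enzyme, differed by -0.44 (adjusted p = 0.0125) and 0.50 (adjusted p = 0.00834) in the same comparisons.

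Gsto1, an omega-class enzyme that reduces dehydroascorbate, read 1395, 1478.4, 1622.3 and 1559.5 in SMA ceftriaxone, 1375.1, 1424.5, 1509.9 and 1461.3 in SMA vehicle, and 1129.8, 921.5, 1164 and 1093.8 in wildtype. Both SMA groups lay wholly above wildtype and overlapped each other. It was higher than wildtype by 0.49 with ceftriaxone (adjusted p = 0.00795) and by 0.42 with vehicle (adjusted p = 0.00104). Its probe set carries the same suffix as that of Gstm1. A further Gsto1 probe set without that suffix gave 0.41 (adjusted p = 0.0437) and 0.51 (adjusted p = 0.00137), both called. The ceftriaxone call of the brightest set was lost with Xist as a covariate (0.47, adjusted p = 0.0772) and with only the 2 groups compared. Gstt1, a theta-class enzyme, was higher in SMA vehicle than in wildtype (0.37, adjusted p = 0.0385). That call was kept in 13 of 27 alternative settings and was lost without wildtype array 2.

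Of the aldehyde dehydrogenases, 12 of 16 passed the filter, and SMA vehicle had 2 higher and 4 lower than wildtype. This is 16.7% and 33.3% of the 12, against 25.5% and 23.6% of all genes. Aldh1a1, a cytosolic enzyme that makes retinoic acid and oxidises lipid aldehydes, read 590.4, 704.1, 539.4 and 617.2 in SMA ceftriaxone, 256.8, 286.5, 135.8 and 118.4 in SMA vehicle, and 833.7, 521.7, 908.1 and 925.5 in wildtype. All SMA vehicle arrays lay below the other groups. The signal was 3.92-fold lower in SMA vehicle than in wildtype (log2 difference -1.97 ± 0.25, adjusted p = 4.02e-05) and 3.09-fold higher with ceftriaxone than with vehicle (1.63 ± 0.25, adjusted p = 0.000391). Against wildtype, ceftriaxone cords differed by -0.34 (adjusted p = 0.494).

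Aldh1a2, the retinoic acid-making enzyme of meninges and motor neurons, moved in the opposite order. It read 280.3, 293.7, 319.1 and 285.9 in SMA ceftriaxone, 413.7, 621.6, 492.5 and 352.1 in SMA vehicle, and 195.6, 227.9, 260.1 and 183.7 in wildtype. No 2 groups overlapped. SMA vehicle was 2.06-fold higher than wildtype (1.04 ± 0.16, adjusted p = 0.000136), it was lower with ceftriaxone than with vehicle (-0.62, adjusted p = 0.00816), and the difference of ceftriaxone against wildtype was 0.43 (adjusted p = 0.144). Mitochondrial Aldh1b1 read 156.7, 117.6, 121.2 and 114.4 in SMA ceftriaxone, 236.3, 263.3, 274 and 314.4 in SMA vehicle, and 99.8, 155.9, 95.5 and 86.1 in wildtype. The SMA vehicle arrays were the highest, and the other groups overlapped. It was 2.34-fold higher in SMA vehicle than in wildtype (1.22 ± 0.17, adjusted p = 7.09e-05) and lower with ceftriaxone than with vehicle (-1.01 ± 0.17, adjusted p = 0.00063).

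Aldh9a1, which oxidises aminoaldehydes, read 1604.6, 1818.8, 1727.4 and 1720.4 in SMA ceftriaxone, 1408.3, 1466.3, 1341.2 and 1178.6 in SMA vehicle, and 1878.3, 2229.6, 1963.7 and 2044 in wildtype. The groups did not overlap. It was lower in SMA vehicle than in wildtype (-0.59 ± 0.08, adjusted p = 8.39e-05) and higher with ceftriaxone than with vehicle (0.35 ± 0.08, adjusted p = 0.00539). Aldh1a7, which lies close in sequence to Aldh1a1, read 119, 135.9, 124.3 and 144.6 in SMA ceftriaxone, 127.6, 98.6, 103.6 and 120.5 in SMA vehicle, and 192.3, 161, 213.5 and 159.2 in wildtype. Both SMA groups lay wholly below wildtype; SMA vehicle was called lower (-0.62, adjusted p = 0.00195) and ceftriaxone was not (-0.42, adjusted p = 0.0968). Aldh3a2, the fatty aldehyde dehydrogenase, was lower in SMA vehicle than in wildtype (-0.36, adjusted p = 0.00148), and Aldh6a1, of valine breakdown, was higher with ceftriaxone than with vehicle (0.47, adjusted p = 0.0208), which was lost with Xist as a covariate (adjusted p = 0.0674). With wildtype array 2 left out, Aldh6a1 was also lower in SMA vehicle than in wildtype (-0.38, adjusted p = 0.0228), and Aldh3a2 (-0.25, adjusted p = 0.0469) and Aldh1a7 (-0.47, adjusted p = 0.0433) were lower with ceftriaxone than in wildtype. Aldh2, the mitochondrial enzyme that clears acetaldehyde, read 1134 to 1311.9 in SMA ceftriaxone, 1201.7 to 1327.7 in SMA vehicle and 1090.6 to 1210.7 in wildtype, and was called in no comparison.

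Only 2 of 13 Akr1 genes passed the filter. Akr1a1, the aldehyde reductase and the brightest of the family, read 12783.5 to 13031.4 in SMA ceftriaxone, 11769.4 to 13015.6 in SMA vehicle and 11137.3 to 13317.3 in wildtype, with no call. A further Akr1a1 probe set was called higher in SMA vehicle than in wildtype (0.22, adjusted p = 0.007). The remaining sets gave 0.13 and 0.12 there, neither called. Akr1e1 read 478.9, 511.2, 493.1 and 331 in SMA ceftriaxone, 248.9, 321.8, 304.5 and 242.9 in SMA vehicle, and 421.1, 302.6, 359 and 408.1 in wildtype. It was higher with ceftriaxone than with vehicle (0.66, adjusted p = 0.00482). Its lower level in SMA vehicle than in wildtype (-0.39, adjusted p = 0.0484) was called in 10 of 27 alternative settings, and not with Xist as a covariate (adjusted p = 0.0699).

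Ephx1, the microsomal epoxide hydrolase, read 489.3, 926.9, 680.8 and 1045.1 in SMA ceftriaxone, 454.2, 453.8, 391.3 and 370.7 in SMA vehicle, and 601.4, 552.9, 573 and 638.1 in wildtype. SMA vehicle arrays lay below both other groups, and ceftriaxone arrays spread on both sides of the wildtype range. It was higher with ceftriaxone than with vehicle (0.83 ± 0.18, adjusted p = 0.00352). Its lower level in SMA vehicle than in wildtype (-0.49, adjusted p = 0.0423) was called in 13 of 28 alternative settings, and not with Xist as a covariate (adjusted p = 0.0589). Soluble Ephx2 read 167.2 to 209.8 in SMA ceftriaxone, 203.3 to 286.3 in SMA vehicle and 134.1 to 217.2 in wildtype, with no call (SMA vehicle against wildtype 0.38, adjusted p = 0.0502).

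Dcxr, which reduces L-xylulose and dicarbonyls, read 442.1, 720.3, 585.3 and 883.8 in SMA ceftriaxone, 357.5, 433.2, 273.7 and 208.2 in SMA vehicle, and 239.1, 337.2, 216.8 and 219.2 in wildtype. The ceftriaxone arrays lay above every other array, and the other groups overlapped. It was 2.02-fold higher with ceftriaxone than with vehicle (1.02 ± 0.24, adjusted p = 0.00496) and 2.47-fold higher than in wildtype (1.30 ± 0.24, adjusted p = 0.0114), while SMA vehicle did not pass the test against wildtype (0.29, adjusted p = 0.342). Arrays 2 and 4 of the ceftriaxone group were the highest for Dcxr, Ephx1, Gsta4 and Abcb1a.

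**Figure D3:**
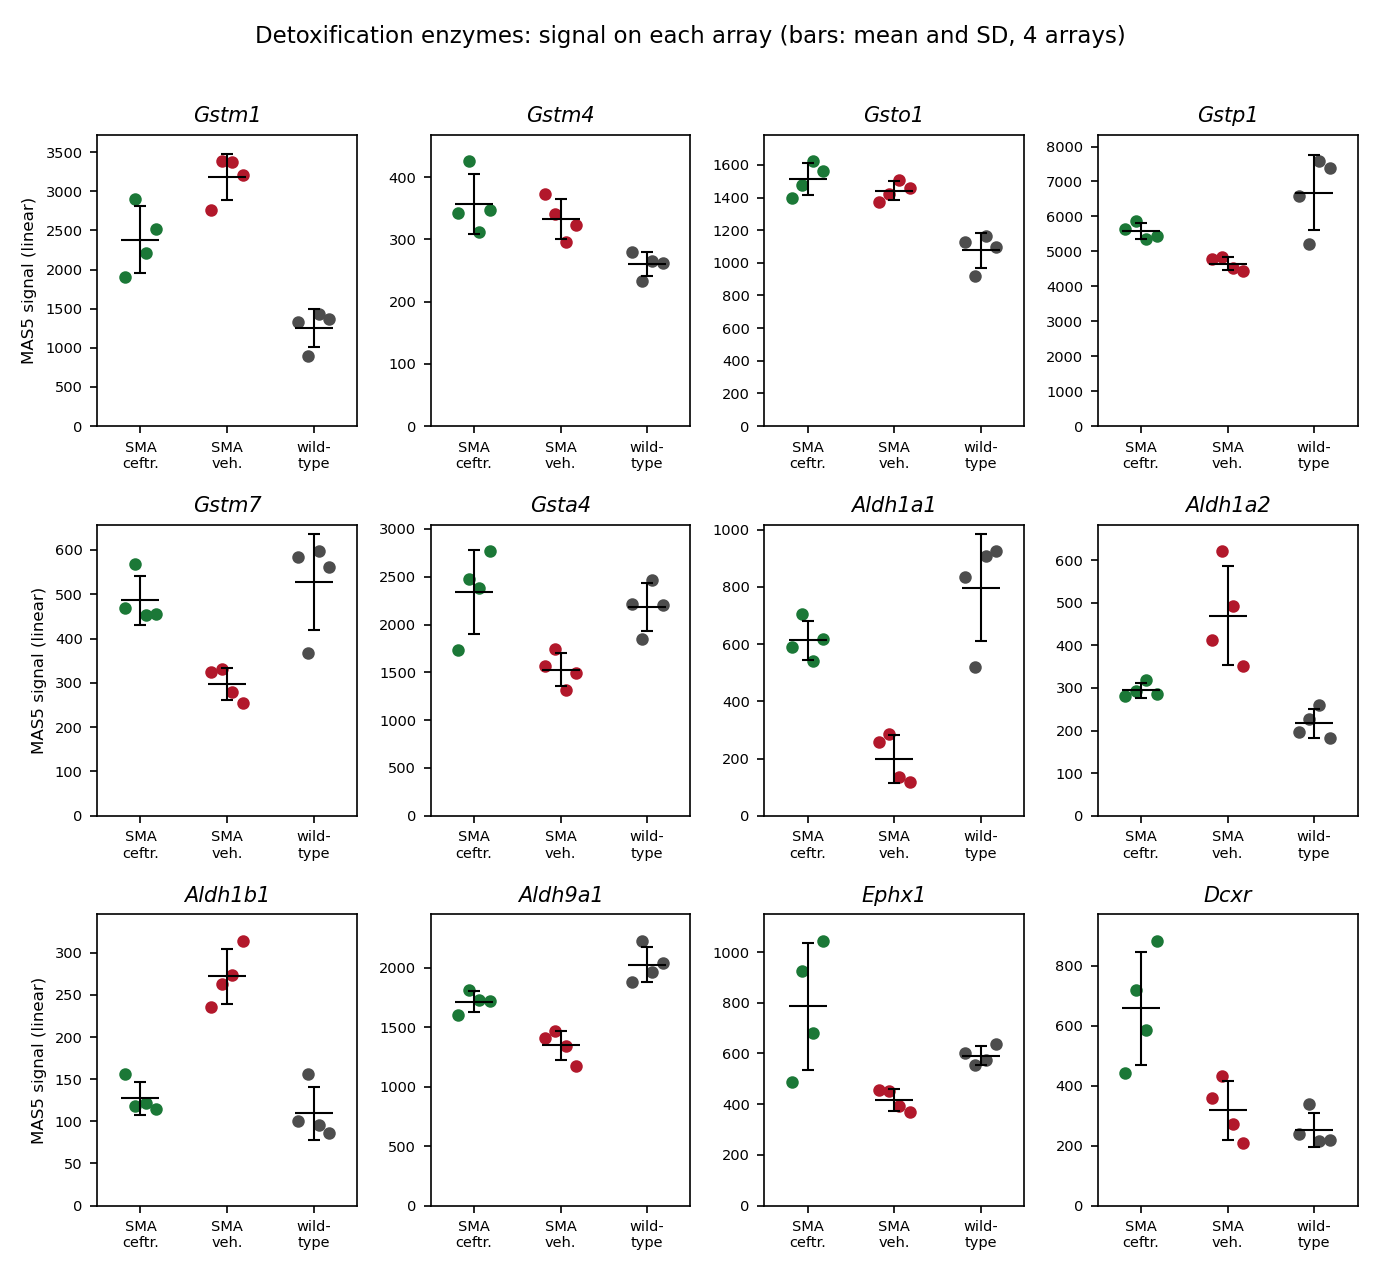
Signal of 12 enzymes on each array (points; linear axis from 0) with the mean and SD of 4 arrays, for SMA ceftriaxone, SMA vehicle and wildtype. Aldh1a1 and Gstm7 are lowest in SMA vehicle, Aldh1a2 and Aldh1b1 highest there, and Dcxr is highest in SMA ceftriaxone.

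Of 32 ABC transporters, 21 passed the filter. In SMA vehicle 3 were higher and 7 lower than in wildtype (14.3% and 33.3%, against 25.5% and 23.6% of all genes). With ceftriaxone 9 were higher and 2 lower than with vehicle (42.9% and 9.52%, against 19.9% and 17.8%). Against wildtype 1 was higher with ceftriaxone (4.76%, near the 3.84% of all genes). Abca2, a lipid transporter abundant in oligodendrocytes, read 1019.7, 757.1, 832.1 and 759.2 in SMA ceftriaxone, 475.7, 405.3, 317.6 and 322.5 in SMA vehicle, and 1310.2, 733.5, 1600.5 and 1507 in wildtype. All SMA vehicle arrays lay below the other groups. It was 3.20-fold lower in SMA vehicle than in wildtype (-1.68 ± 0.21, adjusted p = 3.92e-05) and 2.18-fold higher with ceftriaxone than with vehicle (1.12 ± 0.21, adjusted p = 0.00146). Ceftriaxone cords differed from wildtype by -0.55 (adjusted p = 0.167) and were called lower without wildtype array 2 (-0.80, adjusted p = 0.00579) and with array weights (-0.83, adjusted p = 0.00293).

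Abca1, which exports cholesterol to apolipoproteins, read 2559.1, 2365.8, 2509.8 and 2494.2 in SMA ceftriaxone, 2106.8, 2074.7, 2027.4 and 2244.8 in SMA vehicle, and 1724.6, 1741, 1964.7 and 1817.7 in wildtype. The groups did not overlap, and each SMA group was called higher than wildtype: by 0.45 with ceftriaxone (adjusted p = 0.00379) and by 0.22 with vehicle (adjusted p = 0.013). Ceftriaxone against vehicle was 0.23 (adjusted p = 0.0143). Its 2 further probe sets gave -0.00 and -0.01 for ceftriaxone against vehicle, neither called, and 0.28 and 0.38 for SMA vehicle against wildtype, of which the larger was called. For ceftriaxone against wildtype they gave 0.28 (adjusted p = 0.291) and 0.36 (adjusted p = 0.165). With Xist as a covariate the call of the brightest set for ceftriaxone against vehicle was lost (0.18, adjusted p = 0.0823).

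Abca3, a phospholipid transporter, read 1363.4, 982.4, 1173.1 and 1071.8 in SMA ceftriaxone, 1542.2, 1510.8, 1571.7 and 1580.8 in SMA vehicle, and 1247.7, 893, 1091.7 and 1033.5 in wildtype. It was higher in SMA vehicle than in wildtype (0.54, adjusted p = 0.00127) and lower with ceftriaxone than with vehicle (-0.44, adjusted p = 0.00757). Abca7, another lipid transporter, read 222.3, 165.4, 147.5 and 159.1 in SMA ceftriaxone, 142.1, 127.9, 89.9 and 138.9 in SMA vehicle, and 213.8, 231, 241.3 and 226.1 in wildtype. It was lower in SMA vehicle than in wildtype (-0.81, adjusted p = 0.000764); the higher level with ceftriaxone (0.43, adjusted p = 0.0421) was called in 10 of 26 alternative settings, and not with Xist as a covariate (0.31, adjusted p = 0.187).

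Abcb1a, the P-glycoprotein of the blood-brain barrier, read 166.3, 288.6, 149 and 302.5 in SMA ceftriaxone, 140.2, 137.7, 121.3 and 98.7 in SMA vehicle, and 243.4, 178.2, 249.7 and 228.7 in wildtype. SMA vehicle arrays lay below both other groups. It was lower in SMA vehicle than in wildtype (-0.78 ± 0.21, adjusted p = 0.00874) and higher with ceftriaxone than with vehicle (0.74 ± 0.21, adjusted p = 0.0165). Its further probe set gave -0.90 and 0.79, both called. The call for ceftriaxone against vehicle was kept in 22 of 26 alternative settings. Settings that lost it included leaving out SMA ceftriaxone array 2, SMA ceftriaxone array 4 or SMA vehicle array 4. Abcb6, a mitochondrial porphyrin transporter, read 498.9, 412.1, 458.4 and 409.4 in SMA ceftriaxone, 616.1, 594.4, 700.2 and 708.5 in SMA vehicle, and 544.4, 331.6, 422.8 and 454 in wildtype. The SMA vehicle arrays were the highest: it was higher there than in wildtype (0.58, adjusted p = 0.00274) and lower with ceftriaxone than with vehicle (-0.54, adjusted p = 0.0063). Lysosomal Abcb9 was lower in SMA vehicle than in wildtype (-0.51, adjusted p = 0.000454), and without wildtype array 2 it was higher with ceftriaxone than with vehicle (0.24, adjusted p = 0.0273). Of its 2 further probe sets, one gave -0.11 (adjusted p = 0.489) in SMA vehicle against wildtype. The other gave -0.41 (adjusted p = 0.014) there and was lower with ceftriaxone than in wildtype (-0.59, adjusted p = 0.0192), where the brightest set gave -0.27 (adjusted p = 0.114). Abcb8, a mitochondrial transporter and the brightest Abcb gene here, read 552.3 to 787.5 in SMA ceftriaxone, 564.3 to 703.5 in SMA vehicle and 620 to 789.4 in wildtype, with no call.

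Peroxisomal transport of fatty acids is the work of members of the Abcd family, though not of Abcd4. Abcd2, which imports very long chain fatty acids into peroxisomes, read 249.8, 310.2, 309.8 and 388.6 in SMA ceftriaxone, 230.8, 200.3, 202 and 245.1 in SMA vehicle, and 482.5, 345.5, 371.5 and 426.7 in wildtype. It was lower in SMA vehicle than in wildtype (-0.84, adjusted p = 0.000304) and higher with ceftriaxone than with vehicle (0.48, adjusted p = 0.0175). With Xist as a covariate the difference between ceftriaxone and vehicle was not called (0.44, adjusted p = 0.0665). Abcd4, which acts in cobalamin release from lysosomes, read 266.9, 220, 214.4 and 213.4 in SMA ceftriaxone, 153.5, 129.4, 131.4 and 127.8 in SMA vehicle, and 342.6, 248.2, 406 and 353.3 in wildtype. SMA vehicle lay below the other groups: 2.31-fold lower than wildtype (-1.21 ± 0.14, adjusted p = 2.07e-05), with ceftriaxone higher than vehicle (0.69, adjusted p = 0.00232). Without wildtype array 2, ceftriaxone cords were lower than wildtype (-0.65, adjusted p = 0.00526; with it -0.52, adjusted p = 0.0597). Abcd3, the brightest of the family, read 3440.7 to 3812.2 in SMA ceftriaxone, 3052.5 to 3219.5 in SMA vehicle and 2786.8 to 4065.2 in wildtype, with no call over all arrays. Without wildtype array 2 it was lower in SMA vehicle than in wildtype (-0.31, adjusted p = 0.00045) and higher with ceftriaxone than with vehicle (0.22, adjusted p = 0.00414), and array weights also gave both calls.

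Sterol export is shared by Abcg1 and Abca1. Abcg1 read 720.6, 680.4, 639.2 and 758 in SMA ceftriaxone, 421.6, 433.7, 411.1 and 477.5 in SMA vehicle, and 737.7, 857.4, 523.9 and 748.8 in wildtype. SMA vehicle lay below both groups, lower than wildtype (-0.68, adjusted p = 0.000713), and ceftriaxone was higher than vehicle (0.66, adjusted p = 0.0015). Abcg2, a drug efflux pump of the blood-brain barrier, read 711, 783.3, 748.1 and 838.7 in SMA ceftriaxone, 597.9, 507.6, 477.6 and 550.5 in SMA vehicle, and 665.7, 471.6, 645.4 and 687.3 in wildtype. It was higher with ceftriaxone than with vehicle (0.52, adjusted p = 0.00431); SMA vehicle against wildtype was -0.20 (adjusted p = 0.193), and without wildtype array 2 it was called lower (-0.32, adjusted p = 0.00707). Among the Abcc pumps, Abcc1, an exporter of glutathione conjugates, read 509.4, 498.4, 483.4 and 347.2 in SMA ceftriaxone, 353.7, 376.6, 259 and 366.1 in SMA vehicle, and 434.6, 358.7, 397.7 and 513.6 in wildtype. Its higher level with ceftriaxone (0.42, adjusted p = 0.0475) was called in 10 of 27 alternative settings, and not with Xist as a covariate (0.37, adjusted p = 0.147). Abcc1 was lower in SMA vehicle than in wildtype once wildtype array 2 was left out (-0.40, adjusted p = 0.0422). Abcc5, the brightest Abcc gene here, had 7 probe sets. The brightest read 787 to 1008 in SMA ceftriaxone, 692.5 to 887.4 in SMA vehicle and 807 to 1021.4 in wildtype, with no call. Of the other sets, 3 were lower in SMA vehicle than in wildtype (-0.41, -0.43 and -0.45). The first 2 of these were higher with ceftriaxone than with vehicle (0.41 and 0.33). Abcc9, a channel subunit found in pericytes, read 127.8 to 185.4 in SMA ceftriaxone, 99.9 to 135 in SMA vehicle and 130.8 to 176.4 in wildtype, with no call over all arrays. It was lower in SMA vehicle than in wildtype when wildtype array 2 was left out (-0.39, adjusted p = 0.0411).

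**Figure D4:**
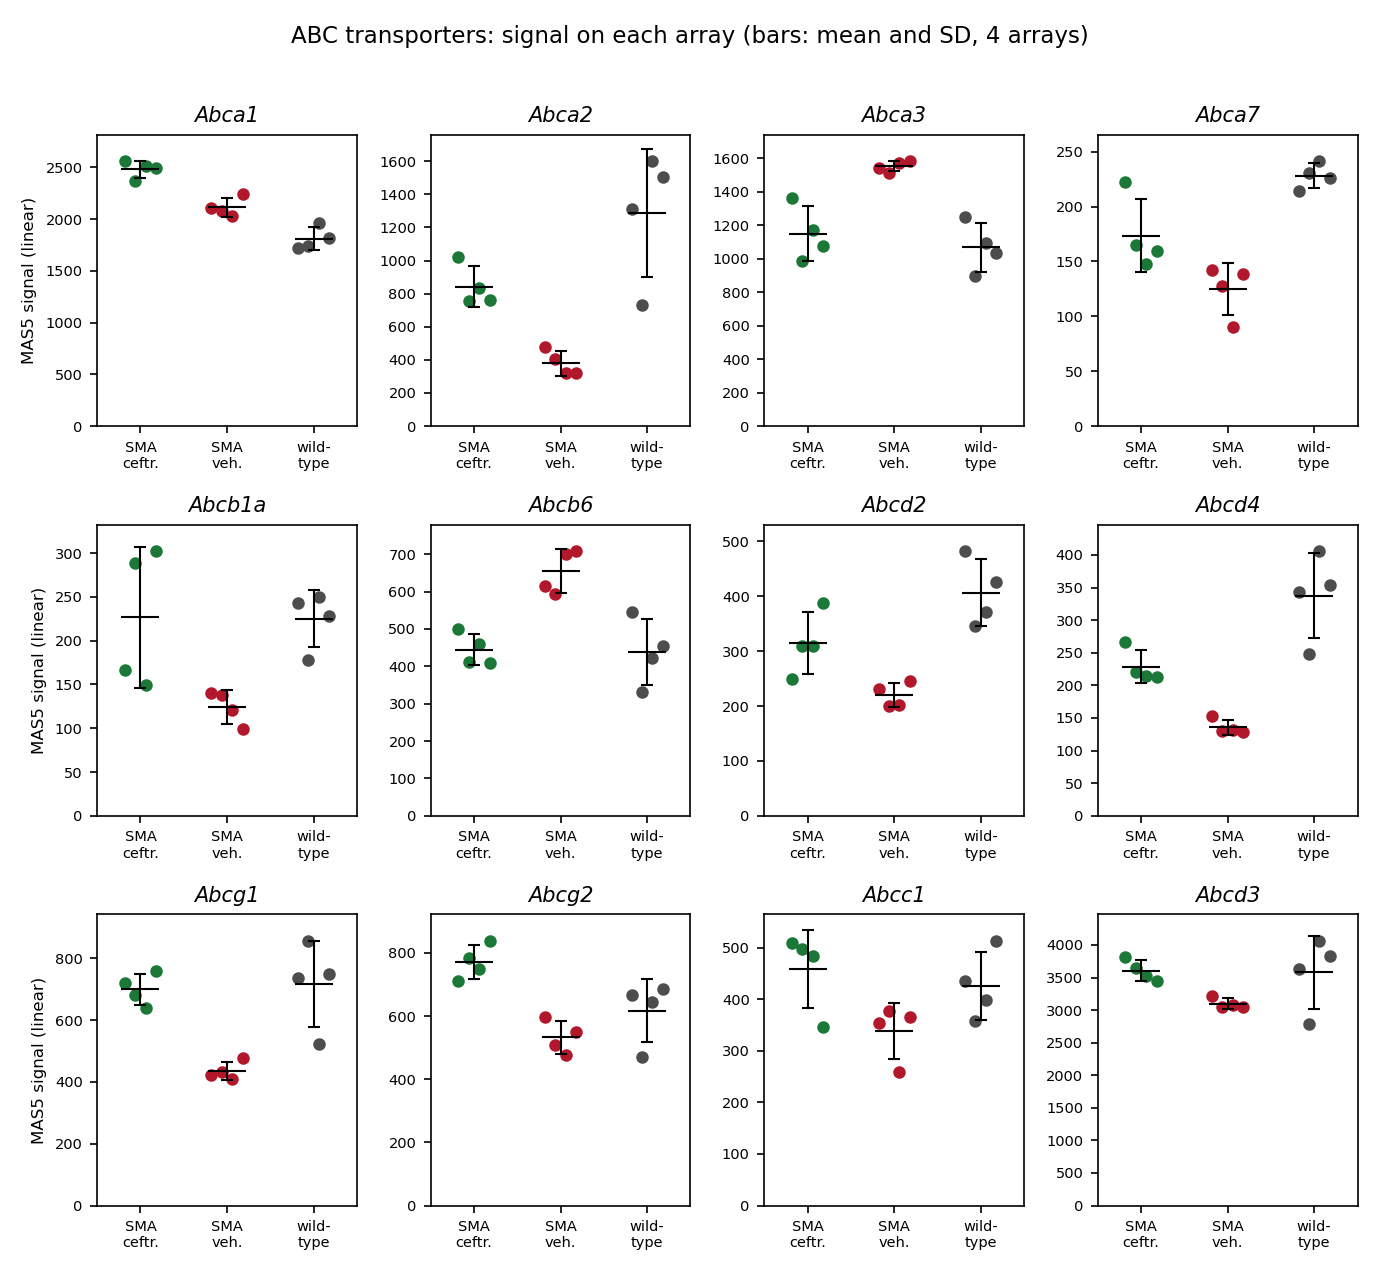
Signal of 12 ABC transporters on each array (points; linear axis from 0) with the mean and SD of 4 arrays, for SMA ceftriaxone, SMA vehicle and wildtype. Abca1 is separated in all 3 groups, Abca2, Abcd4 and Abcg1 are lowest in SMA vehicle, and Abca3 and Abcb6 highest there.

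The 33 genes under the filter included 11 of 13 Akr1 genes and 11 of 32 transporters. Fitted over all probe sets, Gstt3 (-1.12, adjusted p = 0.00261), Akr1c14 (-1.04, adjusted p = 0.00345) and Aldh3b1 (-0.59, adjusted p = 0.00813) were lower in SMA vehicle than in wildtype and Abcg5 higher (0.66, adjusted p = 0.0325). With ceftriaxone, Gstt3 (1.27, adjusted p = 0.002) and Aldh3b1 (0.73, adjusted p = 0.00358) were higher than with vehicle. Of the 33 genes, 7 were highest on wildtype array 2, among them Abcg3 (291.3 there, at most 49.0 on the other arrays) and Akr1c13 (248.4, at most 107.5). The share of all genes under the filter that were highest on that array was not counted.

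Related genes were described by lists and counted on the same fit. The counts stand against 25.5% higher and 23.6% lower of all genes in SMA vehicle against wildtype, and 19.9% and 17.8% with ceftriaxone against vehicle. Of 14 tested genes for other conjugation and glutathione supply, 3 were higher and 6 lower in SMA vehicle than in wildtype, and 8 higher and 1 lower with ceftriaxone than with vehicle. Gss, which completes glutathione synthesis, differed by -1.22 and 1.29 (adjusted p = 5.21e-05 and 0.000101), and Gclm, the modifier subunit of its rate-limiting enzyme, by -0.73 and 0.59 (adjusted p = 0.000214 and 0.00169). Of 17 phase I oxidoreductases, 4 were higher and 4 lower in SMA vehicle (23.5% each, near the share of all genes), and 6 higher and 1 lower with ceftriaxone. Among 12 xenobiotic and sterol regulators, 3 were higher and 2 lower, and then 3 and 3. Nfe2l2 read 636, 711.9, 599.7 and 771.5 in SMA ceftriaxone, 281.2, 287.5, 193.6 and 240.5 in SMA vehicle, and 677.8, 937.2, 804.5 and 825.7 in wildtype. It was 3.12-fold lower in SMA vehicle than in wildtype (-1.64, adjusted p = 1.58e-06) and 2.62-fold higher with ceftriaxone than with vehicle (1.39, adjusted p = 3.8e-05); Ahr, the aryl hydrocarbon receptor, differed by 0.67 and -0.59 (adjusted p = 0.00064 and 0.0025).

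Of 10 retinoid genes, 3 were higher and 1 lower in SMA vehicle, and 2 higher and 3 lower with ceftriaxone; the retinoic acid-binding protein gene Crabp1 differed by 1.85 and -1.15 (adjusted p = 8.42e-07 and 6.32e-05). Of 14 lipid efflux partners, 2 were higher and 6 lower, and then 8 and 2: the apolipoprotein Apod differed by -3.53 and 3.20 (adjusted p = 1.21e-05 and 8.87e-05), and the cholesterol transport gene Npc1 by -1.37 and 1.07 (adjusted p = 6.28e-06 and 0.000111). Of 17 peroxisomal and very long chain fatty acid genes, 1 was higher and 6 lower, and then 7 and 1, with Elovl1, an elongase, at -2.45 and 2.10 (adjusted p = 8.2e-06 and 8.87e-05). Each list's median in SMA vehicle against wildtype stood at -0.18, -0.13, 0.03, 0.03, -0.10 and -0.17, in the order given here, against 0.01 over all genes.

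Markers of other cells were read beside these genes. Of all genes tested, 25.5% were called higher and 23.6% lower in SMA vehicle than in wildtype. With ceftriaxone against vehicle these shares were 19.9% and 17.8%. All 12 markers of mature oligodendrocytes were lower in SMA vehicle than in wildtype (median -2.51) and higher with ceftriaxone (median 2.13); their summed signal was 105895 to 116314 in SMA ceftriaxone, 26411 to 55896 in SMA vehicle and 90875 to 147565 in wildtype. Of 11 tested endothelial markers, 7 were lower in SMA vehicle and 7 higher with ceftriaxone, with summed signals of 7718 to 8776 in SMA ceftriaxone, 4580 to 5934 in SMA vehicle and 6398 to 8542 in wildtype. Of 12 astrocyte markers, 3 were higher (25%, near the share of all genes) and 6 lower in SMA vehicle, and 9 were higher with ceftriaxone. The summed astrocyte signal was 54909 to 62937 in SMA ceftriaxone, 31323 to 39794 in SMA vehicle and 39621 to 60023 in wildtype. Microglial markers were lower in SMA vehicle in 6 of 10 cases and higher with ceftriaxone in 6. Of 16 neuronal markers, 10 were higher and 2 lower in SMA vehicle, and 1 was higher and 7 lower with ceftriaxone. The 10 skeletal muscle markers summed to 318 to 940 in SMA ceftriaxone, 2869 to 6757 in SMA vehicle and 762 to 1962 in wildtype. Of 9 meningeal markers, which include Aldh1a2 itself, 2 were higher and 2 lower in SMA vehicle (22.2% each, near the share of all genes). In whole tissue RNA, fewer cells of a type and less RNA per cell cannot be told apart. The part of these cell types in the differences of the enzymes and transporters was not tested.

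**Figure D5:**
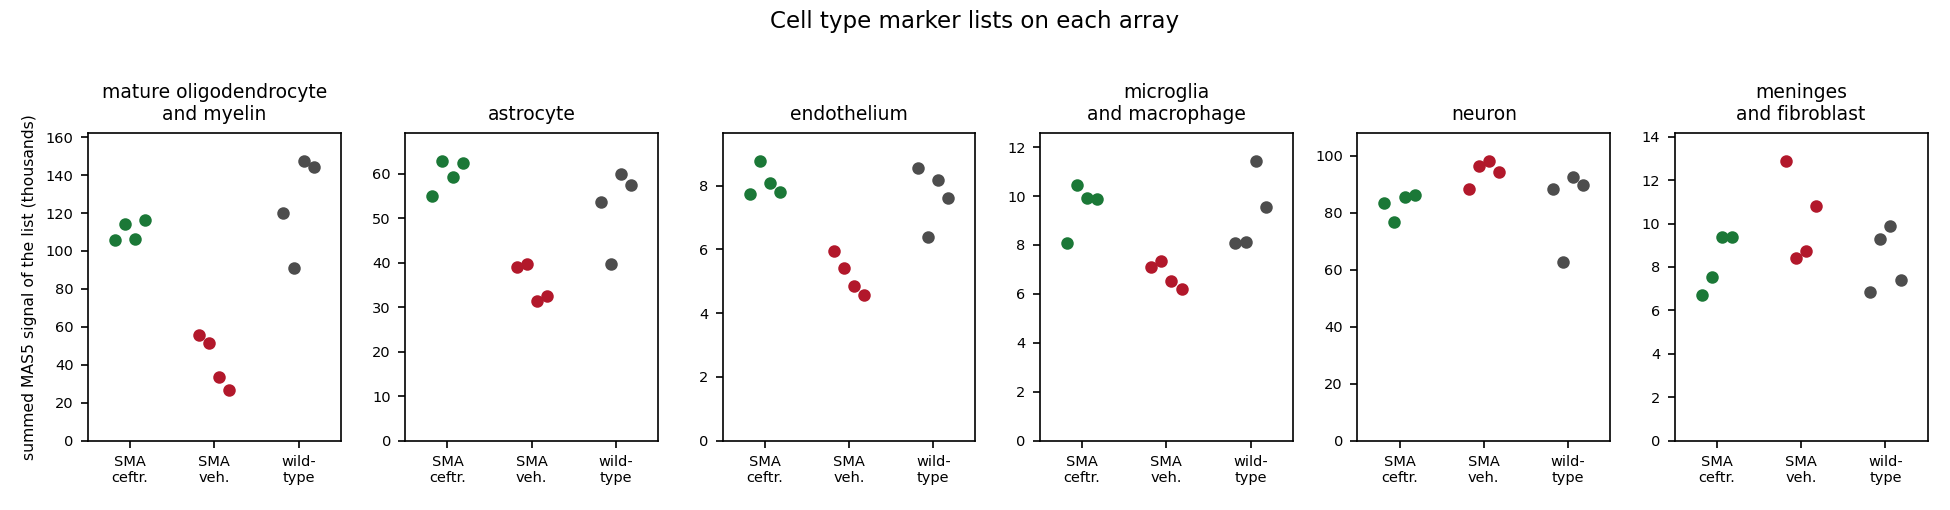
Summed signal (axis in units of 1000) of 6 cell type marker lists on each array, for SMA ceftriaxone, SMA vehicle and wildtype. The oligodendrocyte, endothelial and microglial sums of every SMA vehicle array lie below those of all other arrays. For astrocytes the highest SMA vehicle sum, 39794, lies just above the lowest wildtype sum, 39621.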

How the data were processed

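RNA of 12 mice was hybridised to Affymetrix expression arrays. Per the submitters' processing notes, the deposited signal intensities came from MAS5; they are linear, and no source used here names its version. The authors' scaling shows in the deposited signals, whose trimmed mean was 695.7 to 696.9 on every array. After 64 control probe sets were removed, log2(signal + 16) was computed, and 13575 of 22626 probe sets above the 40th percentile of mean log2 signal were kept. limma 3.58.1 (R 4.3.3), with all 12 arrays in a single model of group means and an intensity trend, left 9 residual degrees of freedom. P-values were adjusted by Benjamini-Hochberg across all 13575 and called under 0.05; they measure the spread between these mice. The code was tested on simulated data. The median standard error was 0.12 on the log2 scale.

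Values of every array, or their range, are given for called members of largest rise and fall without overlap of the groups (up to 10 each way, 5 for ceftriaxone against wildtype), the brightest of each family, and a set of well-known members. Members and lists were chosen with earlier results of these data known. Alternatives varied the offset, filter, normalization, weights, covariates, probe set choice and arrays. Same-numbered arrays did not deviate together (correlations -0.143 to 0.133), so numbers were not taken as pairs.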

Additional observations from a re-analysis of the deposited data

Results flagged for a closer look

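Of 99 sets of 4 array values tested, 11 had a highest or lowest array separated from the other 3 by more than Dixon's 95% critical value of 0.829 of the range; chance flags about 1 in 20. Of these, 4 were wildtype array 2 reading lowest: Gstm1 at 897.5, Gstm5 at 3803.9, Gstm7 at 366.5 and Abcg2 at 471.6. In SMA ceftriaxone, array 2 was highest for Gstm7 (568.2), array 1 was highest for Abcd4 (266.9), and array 4 was lowest for Akr1e1 (331.0) and Abcc1 (347.2). In SMA vehicle, array 1 was highest for Abcd3 (3219.5) and Abcd4 (153.5), and array 3 lowest for Abcc1 (259.0). The part of thymus RNA in the wildtype array 2 values was not tested.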

How the results depend on the processing

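No call of a named or called member turned its direction in the settings run; uncalled members were not all followed. Leaving out 1 array at a time gave, of 48 members, 7 to 11 higher and 15 to 24 lower in SMA vehicle than in wildtype, 14 to 22 higher and 4 to 5 lower with ceftriaxone than with vehicle, and 4 to 5 higher and 0 to 5 lower with ceftriaxone than in wildtype. Without wildtype array 2 (replicate 2) the last counts were 5 and 5. With a filter at the 60th percentile (28 members tested), SMA vehicle had 5 higher and 10 lower, ceftriaxone against vehicle 12 higher and 3 lower, and ceftriaxone against wildtype 3 higher. With only arrays of low Xist signal, chosen after the data were seen, SMA vehicle had 3 higher and 7 lower; with only high Xist arrays, among which wildtype has a single array that is assumed to vary like the others, it had 4 and 10, and ceftriaxone against wildtype had 0 higher. Ceftriaxone against wildtype had 3 higher with only the 2 groups compared and 2 with Xist as a covariate; it had 1 lower without the intensity trend or with the mean of all probe sets, 5 with array weights, and 4 with Xist as a covariate and wildtype array 2 left out. The cause was not tested. With the replicate number as a block, counts were 9 and 15, 16 and 4, and 4 and 0. Calls of 14 of 23 members for ceftriaxone against vehicle, 7 of 26 for SMA vehicle against wildtype, and 0 of 5 for ceftriaxone against wildtype held in every setting run; apart from the high Xist setting, with its single wildtype array, the numbers were 14 of 23, 10 of 26 and 2 of 5, the last being Abca1 and Dcxr. Over all probe sets, SMA vehicle against wildtype had 3378 higher and 3023 lower, and 3557 and 2517 after median centring; ceftriaxone against vehicle had 2482 and 2397, and 1884 and 2535 after centring. Ceftriaxone against wildtype had 446 and 126, with 181 and 55 after centring, 94 and 17 with only the groups compared, 65 and 15 with Xist as a covariate, 175 and 38 with the Gapdh 3 prime to 5 prime ratio as one, 283 and 61 with the replicate block, 1107 and 719 with array weights, and 854 and 580 without wildtype array 2. The number of arrays limits precision.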
